A study of Mus musculus with 192 samples.

Results

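PAM given alone was compared with the control group, named Ctrl, in mouse bone marrow-derived dendritic cells. The comparison rests on 6 libraries, PAM replicates 1 to 3 and Ctrl replicates 1 to 3, chosen by their labels alone from a series of 64 groups of 3. Cells of all groups were grown with GM-CSF at 15 ng/mL from the marrow of female C57BL/6J mice aged 6 to 8 weeks, plated at 100000 per well, left overnight and then exposed for 6 hours. The remaining libraries hold the other single ligands (LPS, HMW, Zymosan, SeV, cGAMP and CpGB) and their pairs and triplets. LPS, CpGB and Zymosan serve below as direct comparisons with PAM, and all 6 are used to ask where PAM stands apart. The labels give no dose for any ligand and do not spell out PAM. Nor do they say whether the 3 libraries of a group come from separate cultures or mice. The p-values rest on the spread between libraries within a group, pooled over all 64 groups, and that spread may be technical. GM-CSF cultures of marrow hold macrophage-like cells beside dendritic cells, and the values are averages over the well.

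As background, PAM is a common abbreviation for synthetic bacterial lipopeptides. Toll-like receptor TLR2 recognises such lipopeptides on the cell surface as a pair with TLR1 or TLR6, and the surface protein CD14 helps to hand lipid ligands over. The adaptor MyD88 then recruits IRAK kinases, which lead to the transcription factor NF-kB and to MAP kinases that drive AP-1. In dendritic cells this route is known for inflammatory cytokines, chemokines and maturation. LPS acts through TLR4, which uses MyD88 and also the adaptor TRIF, a route to type I interferon. CpG DNA acts through the endosomal receptor TLR9, and zymosan is a yeast cell wall preparation bound by Dectin-1, described in the labels as depleted.

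The Ctrl libraries held 61823, 68941 and 89530 counts and the PAM libraries 144331, 191207 and 171573 counts. A count is 1 unique molecular identifier (UMI), meant to stand for 1 original cDNA molecule. Levels are given as CPM, counts scaled to a common library size after TMM scaling, on which 1 count is worth 9.60 to 13.9 CPM in Ctrl and 5.03 to 6.56 CPM in PAM. The summed level of 11 dendritic cell markers was 14060 to 15479 CPM with PAM and 15250 to 15525 CPM in Ctrl, with Zbtb46 and Cd209a at 0 in all 6 libraries. The 11 macrophage or monocyte markers summed to 12991 to 13773 CPM and 12834 to 14364 CPM, with Mertk at 0, and the 9 neutrophil markers to 824 to 958 CPM and 586 to 873 CPM, with Mpo, Elane and Cebpe at 0. Among macrophage markers Emr1, Ly6c2 and Cd14 were called higher and C1qa and C1qb lower, and among neutrophil markers Retnlg was called lower. The 5 plasmacytoid dendritic cell markers summed to 5.03 to 55.6 CPM with PAM and 41.6 to 62.4 CPM in Ctrl. No count was found for the 5 B cell and 6 erythroid markers. The part of these markers in the results below was not tested. In such a mixture fewer cells of a type and less RNA per cell cannot be told apart.

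With PAM, 656 of the 4720 genes tested were called changed (13.9%), 378 higher (8.01%) and 278 lower (5.89%). Calls needed an adjusted p under 0.05 and a change of at least 1 on the log2 scale in either direction (edgeR's quasi-likelihood test, Benjamini-Hochberg adjustment over all genes tested). Among the called genes, 620 had PAM and Ctrl libraries that did not overlap, against 1450 of all genes tested (30.7%). The balance of higher and lower calls depended on the processing. It was 378 to 278 with TMM factors (57.6% higher), 307 to 335 with RLE factors (47.8%), 283 to 371 with library size alone (43.3%), 414 to 171 with no filter on low counts (70.8%), 281 to 247 with DESeq2 (53.2%) and 210 to 126 after thinning every library to 46564 counts (62.5%). The centre of all fold changes moved on the log2 scale by -0.13 with RLE factors, -0.18 with library size alone, 0.19 with no filter, -0.04 with DESeq2 and -0.10 after thinning, so changes in gene lists are read against the 0.03 median of all genes tested. The spread of every gene and the position of the named ones can be seen in the plot of fold change against level.

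**Figure D1:**
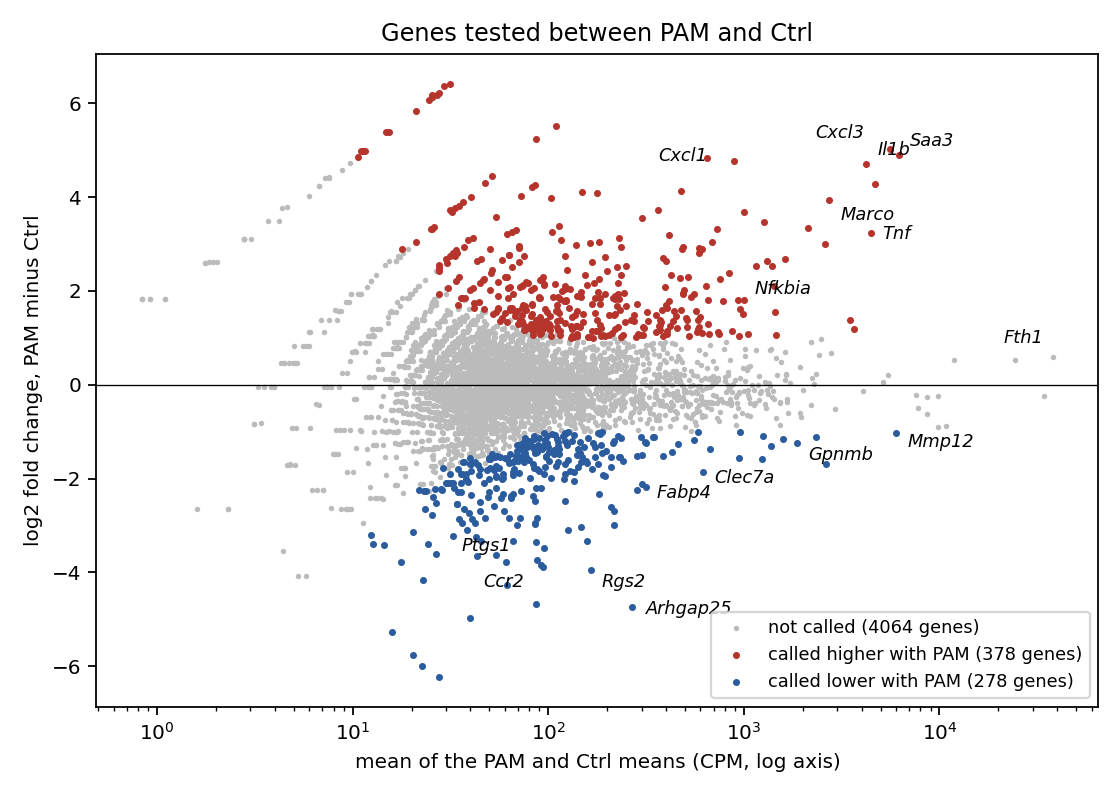
Each point is 1 of the 4720 genes tested, with its level (mean of the PAM and Ctrl means, CPM, log axis) on the horizontal axis and its log2 fold change, PAM minus Ctrl, on the vertical axis. The 378 genes called higher are red, the 278 called lower blue and the rest grey; Cxcl3, Cxcl1 and Saa3 are named among the largest rises and Arhgap25 among the largest falls.

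The largest rises among well-counted genes were led by secreted products. Cxcl3, which attracts neutrophils, stood at 402, 274 and 336 CPM in Ctrl and 10675, 10708 and 11279 CPM with PAM, a 32.4-fold rise (log2 fold change 5.02, SE 0.26, adjusted p = 1.2e-46). Saa3, an acute phase apolipoprotein, stood at 360.1, 461 and 384 CPM in Ctrl and 12899, 10734 and 12479 CPM with PAM (log2 fold change 4.90, SE 0.23, adjusted p = 4.4e-53). Groups that did not overlap were a condition of this ranking, so the gap between PAM and Ctrl libraries was fixed by the choice. Cav1, the main protein of caveolae, rose 28.6-fold from 55.4, 49.9 and 28.8 CPM to 1240.0, 1237 and 1267 CPM (adjusted p = 1.4e-39). Osbpl3, an oxysterol-binding-protein relative, rose 17.2-fold (adjusted p = 2.0e-13), the scavenger receptor Marco 15.2-fold (adjusted p = 5.0e-38) and Wdr92 17.0-fold (adjusted p = 3.3e-18). The other 4 of the 10 largest rises, Cxcl1, Il1b, Cxcl2 and Lcn2, are described with their groups.

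The largest falls among well-counted genes were led by signalling proteins. Arhgap25, which switches off the GTPase Rac, stood at 540.2, 461 and 557 CPM in Ctrl and 6.56, 35.2 and 11.1 CPM with PAM (log2 fold change -4.74, SE 0.36, adjusted p = 2.9e-27). Rgs2, a brake on G protein signalling, stood at 429, 312 and 192.03 CPM and 26.2, 20.1 and 11.1 CPM (log2 fold change -3.94, SE 0.41, adjusted p = 3.5e-16). Here too, groups that did not overlap were a condition of the ranking. The diacylglycerol lipase Daglb fell by 3.89 on the log2 scale (adjusted p = 3.8e-10). Adssl1, an enzyme of purine nucleotide synthesis, fell by 3.63 (adjusted p = 4.4e-06), the sugar phosphate transporter Slc37a2 by 3.34 (adjusted p = 8.1e-08) and the heparan sulfate enzyme Hs6st1 by 3.33 (adjusted p = 5.5e-05). Ccr2, Ptgs1 and Vegfa, also among the 10 largest falls, are described with their groups.

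Of the genes of lipoprotein recognition and MyD88 signalling, 6 of the 16 tested were called, all higher, and the median log2 fold change was 0.92. Cd14 stood at 346, 337 and 403 CPM in Ctrl and 2047, 2303 and 2461 CPM with PAM, a 6.21-fold rise (log2 fold change 2.63, SE 0.18, adjusted p = 2.3e-32). Tlr2, the shared receptor chain, stood at 13.9, 99.8 and 96.0 CPM and 439.6, 478 and 372 CPM, a 5.78-fold rise (log2 fold change 2.53, SE 0.29, adjusted p = 8.2e-14). The groups did not overlap for either gene. Tab2, an adaptor of the kinase TAK1, rose 3.31-fold (adjusted p = 0.0029), and Irak2, a kinase downstream of MyD88, 2.59-fold (adjusted p = 0.0027). The partner chains are read from few counts. Tlr1 stood at 27.7, 112 and 67.2 CPM in Ctrl and 98.4, 186 and 183 CPM with PAM and was called higher although the groups overlap (log2 fold change 1.17, adjusted p = 0.022). Tlr6 stood at 13.9, 49.9 and 19.2 CPM and 13.1, 5.03 and 0 CPM and was not called (log2 fold change -2.13, adjusted p = 0.12). Without Ctrl replicate 3 only 3 of the 6 calls were made, since Irak2, Tlr1 and Myd88 were lost, with adjusted p of 0.078, 0.093 and 0.18. The Tlr1 call was also lost without PAM replicate 2 or 3 (adjusted p = 0.078 and 0.080) and without Ctrl replicate 1 (adjusted p = 0.17), and that of Myd88 without PAM replicate 2 (adjusted p = 0.20) or Ctrl replicate 2 (adjusted p = 0.063). Other processing choices also ended these calls. Myd88 was lost with RLE factors (adjusted p = 0.064), with library size alone (adjusted p = 0.079), with DESeq2 (adjusted p = 0.061) and after thinning (adjusted p = 0.11). Tlr1 was lost with library size alone (adjusted p = 0.063), with DESeq2 (adjusted p = 0.055) and after thinning (adjusted p = 0.085), and Irak2 after thinning (adjusted p = 0.083).

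Among 14 other pattern recognition receptors tested, 3 were called higher and 1 lower. The median of 0.72 was 0.46 without Ctrl replicate 1 and 0.20 without Ctrl replicate 3. Clec4e, the C-type lectin Mincle, rose 10.1-fold, from 346, 461 and 346 CPM to 4192, 3740.4 and 3739 CPM (adjusted p = 1.3e-56). Clec7a, which encodes the glucan receptor Dectin-1, went the other way, from 1122, 910.5 and 893 CPM in Ctrl to 262, 256 and 278 CPM with PAM (log2 fold change -1.86, SE 0.18, adjusted p = 4.8e-18). The PAM libraries were all above Ctrl for the first lectin and all below Ctrl for the second. Zbp1, a sensor of nucleic acids, was called higher (log2 fold change 1.76, SE 0.62, adjusted p = 0.032), a call lost without PAM replicate 3 (adjusted p = 0.13), Ctrl replicate 1 (adjusted p = 0.10) or Ctrl replicate 3 (adjusted p = 0.34). It was also lost with RLE factors (adjusted p = 0.051), with library size alone (adjusted p = 0.053), with DESeq2 (adjusted p = 0.069) and after thinning (adjusted p = 0.85).

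NF-kB subunits and their inhibitors were among the lists with the largest share of calls. Of 11 tested, 6 were called higher and 1 lower, and the median log2 fold change was 1.20. Nfkbia, the inhibitor that holds NF-kB in the cytoplasm and is itself an NF-kB target, stood at 332, 474 and 509 CPM in Ctrl and 1647, 1553 and 1472 CPM with PAM, a 3.49-fold rise (log2 fold change 1.80, SE 0.15, adjusted p = 1.7e-24). Nfkbiz, a nuclear inhibitor family member needed for genes such as Il6, stood at 55.4, 37.4 and 28.8 CPM and 282, 372 and 317 CPM, an 8.22-fold rise (log2 fold change 3.04, SE 0.36, adjusted p = 2.0e-13). The subunit genes Nfkb1 and Nfkb2 rose 2.53-fold (adjusted p = 4.2e-09) and 2.54-fold (adjusted p = 4.6e-06). All 3 PAM libraries exceeded all 3 Ctrl libraries for these 4 genes. The single member called lower, Nfkbid, had overlapping groups and was lost without Ctrl replicate 1 (adjusted p = 0.11) or Ctrl replicate 3 (adjusted p = 0.11), and with no filter on low counts (adjusted p = 0.056).

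Genes that restrain the same signalling were called in 1 direction. Of 18 brakes on signalling and mRNA tested, 7 were called, all higher, and the median was 0.90, or 1.62 without Ctrl replicate 3. Socs3, which blocks cytokine receptors, stood at 69.3, 12.5 and 76.8 CPM in Ctrl and 433, 452 and 372 CPM with PAM, a 7.61-fold rise (log2 fold change 2.93, SE 0.32, adjusted p = 4.1e-15). Zc3h12a, an endonuclease that degrades cytokine mRNA, rose 5.04-fold (adjusted p = 3.9e-09), and the ubiquitin-binding protein Tnip1 4.22-fold (adjusted p = 2.9e-14). Tnfaip3, a ubiquitin-editing enzyme that damps NF-kB, stood at 208, 262 and 221 CPM and 892, 819 and 822 CPM, a 3.66-fold rise (adjusted p = 2.2e-16). Irak3, a kinase-dead member of the IRAK family, had 2 counts over the Ctrl libraries. Its level with PAM, 177, 151 and 161 CPM, gave a ratio to Ctrl of 20.8 with a 95% interval of 5.58 to 174, which covers counting error only (adjusted p = 1.7e-08).

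The CXCR2 ligands Cxcl1, Cxcl2 and Cxcl3 and the inhibitor Nfkbia carry a match to the NF-kB consensus close before their start sites, and their sequences are shown for that match. The 150 bases before each start site are printed 5′ to 3′ on the gene's strand, from the RefSeq promoter table of build GRCm38.p6, with the matched bases in capitals.

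Cxcl1 (chr5:90891095-90891244, plus strand): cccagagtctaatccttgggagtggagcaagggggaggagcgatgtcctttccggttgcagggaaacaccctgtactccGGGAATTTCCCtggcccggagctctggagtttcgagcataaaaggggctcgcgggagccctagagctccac

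Cxcl2 (chr5:90903749-90903898, plus strand): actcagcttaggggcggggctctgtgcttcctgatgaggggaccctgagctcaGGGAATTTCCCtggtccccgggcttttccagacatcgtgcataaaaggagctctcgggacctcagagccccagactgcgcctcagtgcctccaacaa

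Cxcl3 (chr5:90785951-90786100, plus strand): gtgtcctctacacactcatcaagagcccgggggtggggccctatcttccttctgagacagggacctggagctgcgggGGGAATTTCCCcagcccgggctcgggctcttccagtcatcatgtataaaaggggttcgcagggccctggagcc

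Nfkbia (chr12:55492648-55492797, minus strand): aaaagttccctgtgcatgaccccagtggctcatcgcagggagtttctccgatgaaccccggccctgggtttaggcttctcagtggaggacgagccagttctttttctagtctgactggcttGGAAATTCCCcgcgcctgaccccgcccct

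In Cxcl1, Cxcl2 and Cxcl3 the capitals cover 2 overlapping matches, on opposite strands, from 71 to 61, 97 to 87 and 73 to 63 bases before the start site. Nfkbia holds 1 match, from 29 to 20 bases before it. The search read both strands of a window from 250 bases before to 50 bases after each start site, a window available for 3829 of the 4720 genes tested, with each gene counted once. A match lay in 43 of 312 genes called higher (13.8%), 14 of 223 called lower (6.28%) and 253 of 3829 tested (6.61%), and in 4.51% of all 32851 windows. The interferon-stimulated response element matched in 8.01%, 5.83%, 5.28% and 3.44% of the same sets. The AP-1 element TGANTCA matched in 11.5% of genes called higher and in 12.1% of those called lower, against 6.92% of genes tested and 7.81% of all windows. No match to the NF-kB consensus lay in the windows of Lcn2, Ptges, Osbpl3, Tnf, Il1b or Saa3. These shares describe letters in a window and not binding.

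Of 17 inflammatory cytokines tested, 8 were called, all higher, and the median log2 fold change was 1.83. Il1b, the precursor of the cytokine interleukin-1 beta, stood at 319, 362 and 259 CPM in Ctrl and 7926, 7757 and 8706 CPM with PAM, a 26.2-fold rise (log2 fold change 4.71, SE 0.16, adjusted p = 4.3e-72). Il1a, its relative, rose 11.1-fold (adjusted p = 1.6e-38). Il12a, a subunit of interleukin-12, had 2 counts over the Ctrl libraries and 138, 141 and 133 CPM with PAM, a ratio of 17.6 with a 95% interval of 4.71 to 148 (adjusted p = 3.0e-08). Ebi3, which pairs with interleukin-12 family chains, rose 3.46-fold (adjusted p = 3.6e-04), and Tnfsf15, a cytokine of the TNF family, 6.63-fold (adjusted p = 1.1e-06). Il6 and Tnf were called higher as well, 10.1-fold and 9.44-fold (adjusted p = 1.1e-29 and 2.3e-39). For each of these genes the PAM libraries lay above all Ctrl libraries. The rise of Ebi3 was lost after thinning (adjusted p = 0.093), and that of Il18 without Ctrl replicate 3 (log2 fold change 1.59, adjusted p = 0.066).

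Of 20 chemokines tested, 11 were called higher and 1 lower, and the median was 1.37. Among members with more than 3 counts in each group, the neutrophil attractants Cxcl3, described above, Cxcl1 and Cxcl2, which share the receptor CXCR2, had the largest fold changes. Cxcl1 stood at 41.6, 24.9 and 106 CPM in Ctrl and 1699, 1629 and 1845 CPM with PAM, a 27.4-fold rise (log2 fold change 4.78, SE 0.32, adjusted p = 4.4e-32). Cxcl2 stood at 416, 549 and 413 CPM and 9415, 8290.2 and 8884 CPM, a 19.4-fold rise (log2 fold change 4.27, SE 0.22, adjusted p = 3.3e-47). Cxcl5, of the same kind, had no Ctrl count. Against a floor of 3 counts over the Ctrl group its level was at least 4.35-fold higher with PAM (adjusted p = 0.0016).

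Other chemokines were called as well. Ccl22, a ligand of CCR4 on T cells, stood at 97.0, 212 and 134 CPM in Ctrl and 892, 1116 and 1106 CPM with PAM, a 7.00-fold rise (log2 fold change 2.81, SE 0.23, adjusted p = 8.5e-25). Its partner ligand Ccl17 had 1 Ctrl count and 112, 206 and 194 CPM with PAM, a ratio of 44.9 with a 95% interval of 7.86 to 1792 (adjusted p = 2.2e-10). Ccl3, an attractant of monocytes and T cells, rose 7.97-fold (adjusted p = 3.6e-36), Ccl9 2.62-fold (adjusted p = 5.0e-29), Cxcl16 2.55-fold (adjusted p = 1.5e-09) and Ccl5 2.29-fold (adjusted p = 6.5e-11). Ccl4 was called higher, 2.10-fold, but fell just short of the fold threshold without PAM replicate 3 (log2 fold change 1.00, adjusted p = 7.6e-05) or Ctrl replicate 1 (log2 fold change 1.00, adjusted p = 1.2e-04). Cxcl14 was the member called lower: it stood at 69.3, 99.8 and 182 CPM in Ctrl and held 3 counts over the PAM libraries, a ratio of Ctrl to PAM of 22.1 with a 95% interval of 6.91 to 113 (adjusted p = 2.6e-08). The 8 members not called include Ccl2, an attractant of monocytes (log2 fold change 0.65, adjusted p = 0.64), and the CXCR3 ligands Cxcl9 and Cxcl10 (log2 fold changes 1.32 and 0.55, adjusted p = 0.36 and 0.18). Ccl17 and Ccl22 are also on the dendritic cell marker list, whose summed level overlapped between PAM and Ctrl.

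**Figure D2:**
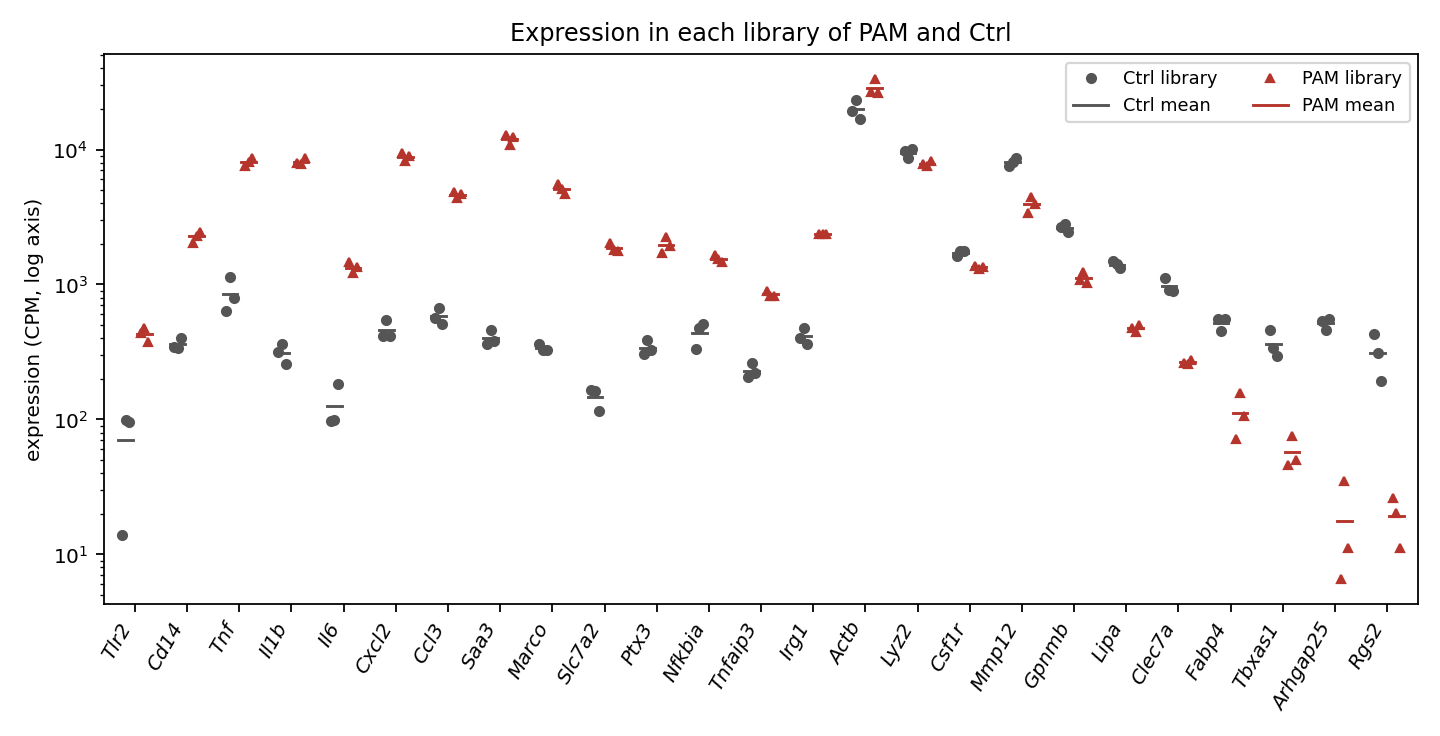
Levels of 25 genes in each Ctrl library (grey circles) and PAM library (red triangles), with CPM on a log vertical axis and a line at each group mean. The inflammatory genes from Tlr2 to Irg1 lie higher in all PAM libraries and those from Mmp12 to Rgs2 lower, while Actb, Lyz2 and Csf1r, which were not called, lie closer together (log2 fold changes 0.54, -0.27 and -0.36).

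Interferon-response genes are switched on by type I interferon. Of 29 tested, 11 were called, all higher, and the median was 0.79. Gbp2, a guanylate-binding protein, stood at 125, 262 and 211 CPM in Ctrl and 807, 659 and 872 CPM with PAM, a 3.83-fold rise (log2 fold change 1.94, SE 0.20, adjusted p = 1.0e-16), and Gbp3 rose 3.25-fold (adjusted p = 1.5e-04). Oas2, an antiviral synthetase, had 2 Ctrl counts and 59.0, 50.3 and 66.7 CPM with PAM, a ratio of 7.48 with a 95% interval of 1.90 to 64.5 (adjusted p = 0.0053). Those 3 calls were made in every fit that left out 1 library. The list count fell from 11 to 4 without Ctrl replicate 3 and also to 4 after thinning, with all 29 genes tested. It was 7 with library size alone in place of TMM factors and 8 with RLE factors or DESeq2. The other fits that left out 1 PAM or Ctrl library gave 9 to 12.

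The AP-1 and early transcription factor list split, with 5 of 19 called higher and 5 lower, and its median of 0.08 changed sign with the scaling and without PAM replicate 3 (-0.20). Cebpd, which acts with NF-kB on inflammatory genes, stood at 27.7, 12.5 and 67.2 CPM in Ctrl and 190.3, 171 and 283 CPM with PAM, a 5.45-fold rise (log2 fold change 2.45, SE 0.45, adjusted p = 4.1e-06). Fos, an early AP-1 subunit, stood at 111, 112 and 106 CPM and 13.1, 30.2 and 16.7 CPM, and was called lower (log2 fold change -2.36, SE 0.51, adjusted p = 9.0e-05). Atf3, a repressor of inflammatory genes, was 582, 536 and 758 CPM in Ctrl and 243, 241 and 217 CPM with PAM (log2 fold change -1.44, SE 0.19, adjusted p = 1.3e-10). PAM and Ctrl did not overlap for these 3 genes. The counts were 4 higher and 3 lower without PAM replicate 3, and 3 and 3 without Ctrl replicate 1.

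Prostaglandin, thromboxane and leukotriene genes went both ways, with 3 of 10 called higher and 3 lower. Ptgs2, the inducible cyclooxygenase, stood at 13.9, 24.9 and 19.2 CPM in Ctrl and 157, 216 and 194 CPM with PAM, a 9.50-fold rise (log2 fold change 3.25, SE 0.57, adjusted p = 1.0e-06). Ptges, which makes prostaglandin E2 from its product, stood at 13.9, 12.5 and 28.8 CPM and 190.3, 241 and 194 CPM, a 10.4-fold rise (log2 fold change 3.38, SE 0.49, adjusted p = 2.7e-09). Ptgs1, the constitutive cyclooxygenase, stood at 208, 199.6 and 86.4 CPM and 6.56, 10.1 and 16.7 CPM (log2 fold change -3.73, SE 0.60, adjusted p = 6.5e-08). Tbxas1, the thromboxane synthase, fell by 2.60 on the log2 scale (adjusted p = 1.4e-12). The inducible enzymes were thus higher and the constitutive cyclooxygenase and thromboxane synthase lower in all 3 PAM libraries. The other calls, Pla2g4a higher and Alox5ap lower, were both lost without Ctrl replicate 1 (adjusted p = 0.068 and 0.11), and that of Pla2g4a without Ctrl replicate 2 (adjusted p = 0.079) or with DESeq2 (adjusted p = 0.085).

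Genes of arginine, itaconate and redox metabolism were called in 1 direction too, with 7 of 19 tested called, all higher, and a median of 0.84. Irg1, whose enzyme makes itaconate from a citric acid cycle intermediate, stood at 402, 474 and 365 CPM in Ctrl and 2349, 2368 and 2367 CPM with PAM, a 5.74-fold rise (log2 fold change 2.52, SE 0.15, adjusted p = 1.8e-38). Sod2, the mitochondrial superoxide dismutase, stood at 429, 524 and 374 CPM and 2893, 2629 and 2878 CPM, a 6.38-fold rise (log2 fold change 2.67, SE 0.13, adjusted p = 4.0e-50). Slc7a2, an arginine importer, rose 12.8-fold (adjusted p = 6.4e-50), Slc7a11, the cystine importer, 7.45-fold (adjusted p = 3.8e-25), and Gch1, which starts tetrahydrobiopterin synthesis, 3.67-fold (adjusted p = 3.2e-05).

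Acute phase, antimicrobial and metal-handling genes gave 6 of 18 called higher and 1 lower, with a median of 0.71. Lcn2, which binds the iron carriers of bacteria, stood at 69.3, 49.9 and 38.4 CPM in Ctrl and 912, 759 and 1022 CPM with PAM, a 17.4-fold rise (log2 fold change 4.12, SE 0.30, adjusted p = 3.4e-29). Ptx3, a soluble pattern recognition protein, rose 5.80-fold (adjusted p = 2.3e-13), Cfb, complement factor B, 4.89-fold (adjusted p = 1.1e-19) and Hp, haptoglobin, 4.86-fold (adjusted p = 1.1e-13). Slc40a1, the iron exporter ferroportin, stood at 41.6, 37.4 and 57.6 CPM in Ctrl and had no count with PAM. Against a floor of 3 counts over the PAM group it was at least 8.28-fold lower with PAM (adjusted p = 1.4e-04).

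Costimulation and maturation genes, by which dendritic cells activate T cells, were called in 8 of 15 tested, all higher, with a median of 1.21. Cd40, the receptor for T cell CD40 ligand, stood at 69.3, 112 and 115 CPM in Ctrl and 387, 372 and 322 CPM with PAM, a 3.54-fold rise (log2 fold change 1.82, SE 0.30, adjusted p = 1.9e-07). Fscn1, an actin-bundling protein of mature dendritic cells, rose 3.58-fold (adjusted p = 3.1e-08), the adhesion molecule Icam1 2.29-fold (adjusted p = 3.1e-07) and the TNF receptor Tnfrsf1b 2.92-fold (adjusted p = 6.2e-24). Icosl, a costimulatory ligand, had no Ctrl count and was at least 4.51-fold higher against a floor of 3 counts over the Ctrl group (adjusted p = 3.5e-04). MHC class II genes, which present peptides to T cells, had a median of 0.21 over 9 tested. March1, which removes class II from the surface, stood at 55.4, 37.4 and 9.60 CPM and 197, 111 and 100.0 CPM and was called higher (log2 fold change 2.06, SE 0.45, adjusted p = 1.0e-04). The other class II calls, H2-DMb1 higher and Ifi30 lower, were each lost without PAM replicate 1 (adjusted p = 0.11 and 0.056). H2-DMb1 was also lost without Ctrl replicate 1 (adjusted p = 0.054) or Ctrl replicate 2 (adjusted p = 0.27), and Ifi30 without Ctrl replicate 1 (log2 fold change -0.96, adjusted p = 0.031) or Ctrl replicate 3 (adjusted p = 0.052). H2-DMb1 was lost as well with RLE factors (adjusted p = 0.075), with library size alone (adjusted p = 0.093), with no filter on low counts (adjusted p = 0.056) and with DESeq2 (adjusted p = 0.12), and Ifi30 with no filter on low counts (adjusted p = 0.063).

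Receptors that guide uptake and migration were called in both directions. Of 16 C-type lectins and scavenger receptors, 4 were called higher and 2 lower. Marco, a scavenger receptor for bacteria, stood at 360.1, 324 and 326 CPM in Ctrl and 5544, 5098 and 4723 CPM with PAM, while Mrc1, the mannose receptor, stood at 166, 249 and 192.03 CPM and 52.5, 65.4 and 50.0 CPM (log2 fold change -1.83, SE 0.35, adjusted p = 8.3e-06). Of 22 colony-stimulating factor, chemoattractant and Fc receptors, 4 were called higher and 7 lower. Fpr1, a receptor for bacterial formyl peptides, stood at 125, 149.7 and 67.2 CPM and 715, 699 and 644 CPM, a 6.22-fold rise (log2 fold change 2.64, SE 0.23, adjusted p = 1.7e-22), and Fpr2 rose 7.45-fold (adjusted p = 5.1e-25). Ccr2, which draws monocytes to inflamed tissue, stood at 208, 125 and 182 CPM and 19.7, 0 and 16.7 CPM (log2 fold change -3.83, SE 0.58, adjusted p = 1.4e-08). Ccr1 fell by 1.73 and C3ar1, the receptor for a complement fragment, by 1.86 on the log2 scale (adjusted p = 2.5e-04 and 5.6e-06). The Fc receptors split, with the inhibitory Fcgr2b 3.04-fold higher (adjusted p = 3.0e-07) while the activating Fcgr3 fell by 1.62 on the log2 scale (adjusted p = 3.7e-08).

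Lipid-handling genes formed the list with the largest share of falls, with 7 of 16 called lower, 1 higher and a median of -0.50. Fabp4, a fatty acid carrier, stood at 554, 449 and 557 CPM in Ctrl and 72.2, 156 and 106 CPM with PAM, a 4.54-fold fall (log2 fold change -2.18, SE 0.25, adjusted p = 9.6e-14). Lipa, the lysosomal acid lipase, stood at 1482, 1409 and 1325 CPM and 479, 447 and 500.0 CPM (log2 fold change -1.56, SE 0.16, adjusted p = 9.8e-17). The sterol exporter Abcg1 fell by 1.55 (adjusted p = 1.5e-06), the lipid droplet protein Plin2 by 1.36 (adjusted p = 6.5e-11) and Gpnmb, a lysosome-associated glycoprotein, by 1.23 (adjusted p = 8.4e-16), all on the log2 scale. The exception was Acsl1, which activates long-chain fatty acids: it stood at 69.3, 149.7 and 182 CPM and 912, 1141 and 1089 CPM, a 7.49-fold rise (log2 fold change 2.91, SE 0.22, adjusted p = 3.8e-28). The regulator Pparg did not pass the filter on low counts, with 5 PAM counts and 6 Ctrl counts.

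Matrix proteases and plasminogen-system genes gave 7 of 17 higher and 4 lower, counts that were 7 and 2 without PAM replicate 1, 6 and 2 without Ctrl replicate 2 and 4 and 3 without Ctrl replicate 3. F10, coagulation factor X, rose 3.48-fold (adjusted p = 5.1e-16) and the membrane protease Mmp14 2.34-fold (adjusted p = 2.5e-08). Adam8, a sheddase, and Timp2, a metalloprotease inhibitor, fell by 2.11 and 1.62 on the log2 scale (adjusted p = 1.1e-11 and 0.0011). Of 22 glycolysis and hypoxia genes (9.09% called, against 13.9% of all genes tested) 1 was called higher and 1 lower. The latter, the growth factor Vegfa, stood at 111, 262 and 154 CPM in Ctrl and 6.56, 20.1 and 16.7 CPM with PAM (log2 fold change -3.48, SE 0.52, adjusted p = 7.6e-09). The single glycolytic rise, Pfkl, was lost without Ctrl replicate 1 or 3 (adjusted p = 0.078 and 0.081), with library size alone (adjusted p = 0.063) and after thinning (adjusted p = 0.26).

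Among 15 survival genes 4 were called, all higher (Gadd45a, Traf1, Gadd45b and Cflar). Traf1, an adaptor of TNF receptors, rose 4.79-fold (adjusted p = 1.8e-09) and Cflar, an inhibitor of death-receptor caspases, 2.80-fold (adjusted p = 1.6e-08), while the call of Gadd45a was lost without Ctrl replicate 3 (adjusted p = 0.075). Of 10 inflammasome genes, the sensor Nlrp3 rose 6.12-fold (adjusted p = 8.4e-10) and its adaptor Pycard fell by 1.55 on the log2 scale (adjusted p = 3.9e-05). The third inflammasome call, Casp4 higher with overlapping groups, was lost without PAM replicate 1 (adjusted p = 0.16), Ctrl replicate 2 (adjusted p = 0.24) or Ctrl replicate 3 (adjusted p = 0.22). It was also lost with RLE factors (adjusted p = 0.082), with library size alone (adjusted p = 0.096), with DESeq2 (adjusted p = 0.094) and after thinning (adjusted p = 0.11). Of 12 cholesterol synthesis genes Idi1 and Fdps were higher, 3.53-fold and 3.43-fold (adjusted p = 4.6e-05 and 1.1e-04). Only 11 of the 26 cell cycle genes listed were tested. Of these the replication proteins Mcm6 and Pcna were lower, by 2.54 and 1.50 on the log2 scale (adjusted p = 0.0051 and 1.8e-07). The shares called in these 2 lists, 16.7% and 18.2%, were near the 13.9% of all genes tested. Of 23 actin and adhesion genes 7 were higher, among them the integrin chain Itga4, 3.11-fold (adjusted p = 4.6e-05), and Vasp, an actin elongation factor, 2.33-fold (adjusted p = 4.3e-08). Of 18 chaperone and unfolded-protein genes 1 was lower (5.56%), Sdf2l1. That call was lost without PAM replicate 1 or 3 (adjusted p = 0.052 and 0.096) or Ctrl replicate 1 (adjusted p = 0.084). It was also lost with no filter on low counts (adjusted p = 0.095) and after thinning (adjusted p = 0.079).

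**Figure D3:**
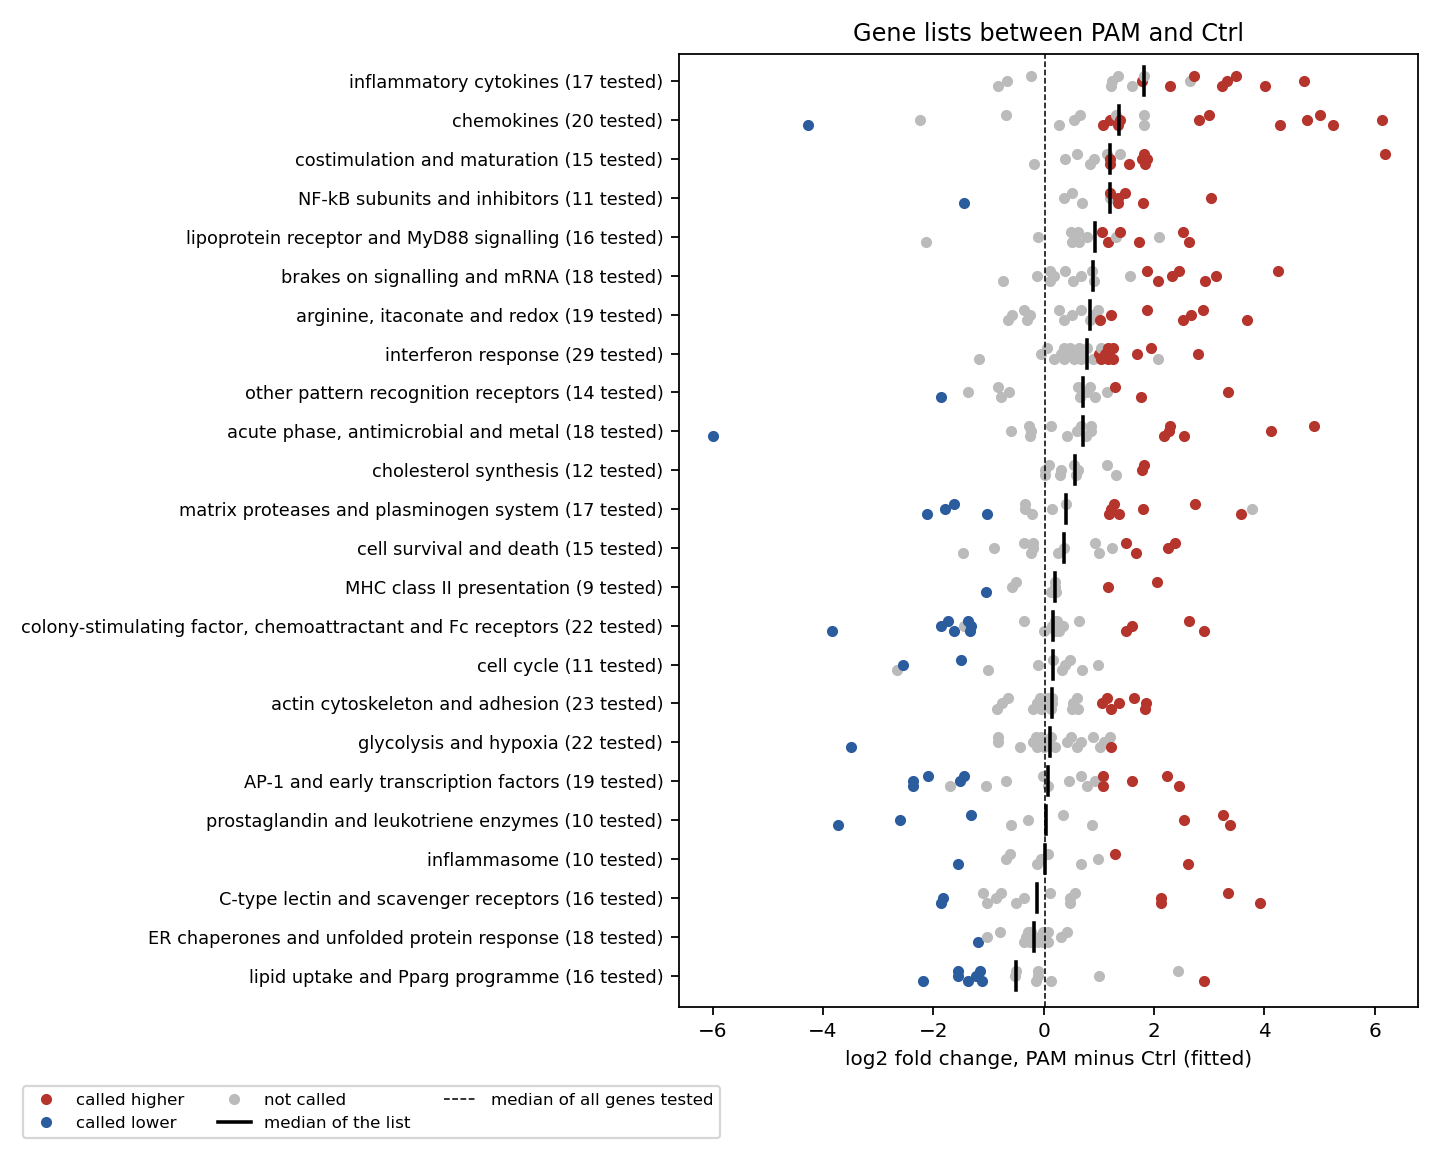
Fitted log2 fold changes, PAM minus Ctrl, of the tested members of the 24 gene lists, 1 row per list, with a point per gene (red called higher, blue called lower, grey not called), a bar at the list's median and a dashed line at the median of all genes tested. Cytokines, chemokines, costimulation and NF-kB genes have the highest medians (1.83, 1.37, 1.21 and 1.20) and lipid-handling genes the lowest (-0.50); points of genes with no count in a group depend on the fit's prior and are not measured folds.

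Some calls rest on genes nearly without counts in 1 group, 61 higher with 0 to 3 Ctrl counts and 19 lower with 0 to 3 PAM counts. The best counted of the former were Slco3a1, Gpd2, Ccl17, Irak3 and U90926. Slco3a1, an organic anion transporter, had 1 Ctrl count and 262, 181 and 200.0 CPM with PAM, a ratio of 54.1 with a 95% interval of 9.51 to 2155 (adjusted p = 1.2e-15). Gpd2, a mitochondrial glycerol phosphate dehydrogenase, had 3 Ctrl counts and 177, 256 and 150.0 CPM with PAM, a ratio of 16.9 with a 95% interval of 5.63 to 83.3 (adjusted p = 2.7e-10). U90926 had 2 Ctrl counts and a ratio of 20.0 with a 95% interval of 5.37 to 168 (adjusted p = 2.6e-07). These intervals cover counting error only. Among the lower genes, Rcbtb2 stood at 222, 187 and 96.0 CPM in Ctrl with 3 counts over the PAM libraries, a ratio of Ctrl to PAM of 28.3 with a 95% interval of 9.03 to 143 (adjusted p = 7.0e-11). Lrmp had 1 PAM count and a ratio of 43.5 with a 95% interval of 7.00 to 1799 (adjusted p = 3.9e-06).

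PAM was then set directly against LPS, with no Ctrl library in the contrast. Of 4720 genes, 765 were called (16.2%), 252 higher with PAM (5.34%) and 513 lower (10.9%). Interferon-response genes were mostly lower: 27 of 29 were called lower with PAM, with a median log2 difference of -2.76 against 0.09 over all genes. Iigp1, an interferon-inducible GTPase, stood at 13.1, 20.1 and 16.7 CPM with PAM and 365 to 447 CPM with LPS (log2 difference -4.50, SE 0.38, adjusted p = 8.2e-23). The other named genes in that direction were all called, with log2 differences of -4.86 for I830012O16Rik, -4.29 for the Fc receptor gene Fcgr1, -4.00 for the protease inhibitor Serpina3g and -3.94 for Gm14446. In the other direction, Cxcl1 stood at 123 ± 9.86 CPM with LPS (SD, n = 3) and 1724 ± 110.0 CPM with PAM (log2 difference 3.79, SE 0.24, adjusted p = 5.0e-36). Cxcl3 and Cxcl2 differed by 3.14 and 2.92 on the log2 scale, the transcription factor Fosl2 by 2.84 and the protease inhibitor Serpinb2 by 2.70. The chemokine list split against LPS, with 5 of 20 higher with PAM (Cxcl1, Cxcl2, Cxcl3, Cxcl5 and Pf4) and 8 lower, Cxcl10 and Ccl5 among them, and DESeq2 called 3 higher and 8 lower. Of 11 NF-kB genes 0 were called by edgeR, with 3 at an unadjusted p under 0.05, and DESeq2 called 0 as well.

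Against CpGB fewer genes differed, 276 of 4720 (5.85%), of which 55 were higher with PAM (1.17%) and 221 lower (4.68%). The interferon list was again mostly lower, 27 of 29 with a median of -1.85, against a median of 0.06 over all genes. Isg20, an antiviral exonuclease, stood at 13.1, 30.2 and 27.8 CPM with PAM and 138 to 231 CPM with CpGB (log2 difference -2.82, SE 0.42, adjusted p = 9.1e-09). Fcgr1, Gm14446, Ccnd2 and Ms4a4c, the other named genes lower than with CpGB, differed by -3.48, -2.96, -2.81 and -2.78 on the log2 scale. Rab11fip1, an effector of the recycling GTPase Rab11, led the named genes higher with PAM, at 212 ± 31.8 CPM with PAM and 56.7 ± 5.43 CPM with CpGB (log2 difference 1.89, SE 0.30, adjusted p = 9.1e-08). Cav2, U90926, Orai2 and Traf5 were higher with PAM by 1.82, 1.78, 1.57 and 1.54, of which Traf5 was lost without CpGB replicate 3 (log2 difference 1.10, adjusted p = 0.091). Of 11 NF-kB genes 0 were called by edgeR, with 1 at an unadjusted p under 0.05, and DESeq2 called 0. Of 17 cytokines 2 were called, Il12b and Il15, both lower with PAM.

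Against Zymosan 461 of 4720 genes were called (9.77%), 223 higher with PAM (4.72%) and 238 lower (5.04%), with a median of 0.00 over all genes. Inflammatory cytokines were higher with PAM in 7 of 17 tested and lower in 1, with a median of 1.38. Il1b stood at 7926, 7757 and 8706 CPM with PAM and 858 to 928 CPM with Zymosan (log2 difference 3.19, SE 0.13, adjusted p = 5.1e-60). Saa3, the copper carrier Cp, the cytokine Il18 and Slco3a1 were higher with PAM by 4.50, 3.75, 3.45 and 3.30 on the log2 scale. Glycolysis and hypoxia genes were called in 13 of 22 tested, all lower with PAM, with a median of -1.09. Vegfa, the hypoxia-responsive growth factor, stood at 6.56, 20.1 and 16.7 CPM with PAM and 129 to 243 CPM with Zymosan (log2 difference -3.64, SE 0.46, adjusted p = 1.2e-11). G530011O06Rik, Tnfrsf26, Wfs1 and Arhgap25, the other large differences in that direction, were -4.79, -3.73, -3.56 and -3.16. Of 16 lipoprotein receptor and MyD88 genes 6 were called, all higher with PAM, Cd14, Tlr1 and Tlr2 among them. Of 29 interferon genes only Gbp2 was called, higher with PAM, and the median was 0.06, or -0.06 to 0.33 without 1 PAM or Zymosan library. That count was 3 without PAM replicate 2, 2 without Zymosan replicate 1 and 4 without Zymosan replicate 2.

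**Figure D4:**
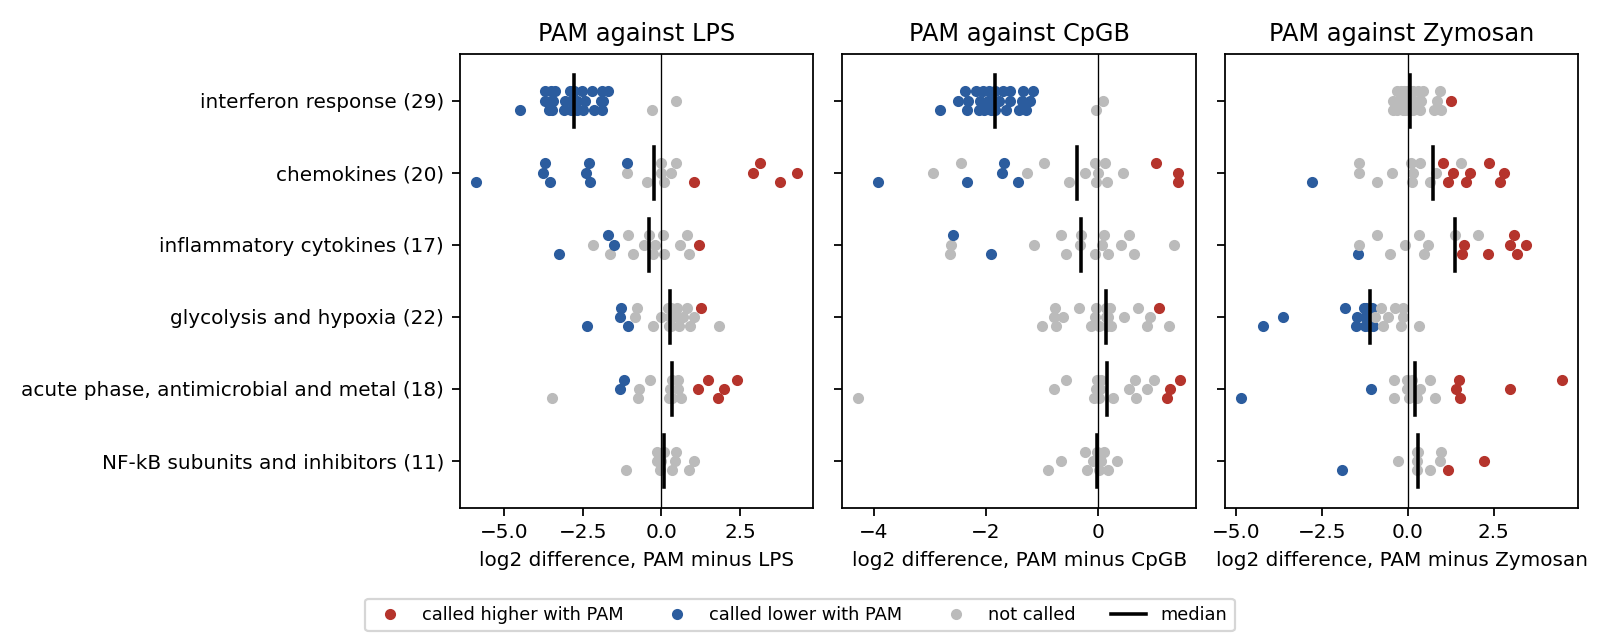
Log2 differences of the members of 6 gene lists, PAM minus LPS, CpGB or Zymosan (1 panel each), with a point per gene coloured by its call, a bar at the list's median and a line at 0. Interferon genes centre on -2.76 and -1.85 against LPS and CpGB and on 0.06 against Zymosan, where glycolysis and hypoxia genes centre on -1.09.

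Few genes set PAM apart from all 6 other single ligands at once. The rule asked for a log2 difference of at least 1 from each of the 6 with the largest of the 6 p-values under 0.05 after adjustment, and 7 of 4720 genes were above (0.148%) and 2 below (0.0424%). Above were Cxcl1, Cxcl2, Cxcl3, Lcn2, Osbpl3, Ptges and Rab11fip1. Cxcl3 had 10887 ± 339 CPM with PAM (SD, n = 3), 4064 ± 330.1 CPM with CpGB, the next highest ligand, 1694 ± 209 CPM with Zymosan and 1239 ± 239 CPM with LPS, and stood at 328 ± 22.1, 182 ± 14.2 and 115 ± 22.8 CPM with HMW, SeV and cGAMP. The means of the last 3 ligands lay below the Ctrl mean of 337 ± 63.7 CPM. Lcn2 was nearest with LPS, at 399.6 ± 34.9 CPM against 898 ± 132 CPM with PAM (log2 difference 1.18, SE 0.17, adjusted p = 8.3e-10). Osbpl3 was nearest with CpGB, at 127 ± 17.7 CPM against 281 ± 34.8 CPM (log2 difference 1.11, SE 0.25, adjusted p = 5.5e-04), a difference not called without PAM replicate 1 (log2 difference 0.92, adjusted p = 0.020) or without CpGB replicate 1 or 2 (log2 differences 0.97 and 0.98).

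The genes below all 6 were Atf3 and Dck. Atf3 had 234 ± 14.7 CPM with PAM, 626 ± 117 CPM in Ctrl and 509.8 ± 12.2 CPM with SeV, the ligand nearest to PAM (log2 difference -1.13, SE 0.18, adjusted p = 7.0e-08). Each of the other 6 ligands left Atf3 within the range of 497 to 687 CPM in every library, against 536 to 758 CPM in Ctrl, while no PAM library exceeded 243 CPM. Dck, deoxycytidine kinase, showed another pattern, with 30.8 ± 7.57 CPM with PAM, 24.9 ± 14.1 CPM in Ctrl and 250.0 ± 41.9 CPM with SeV, the highest. For Dck, PAM and Ctrl overlap and the other ligands had higher levels.

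Leaving out 1 library changed these lists. The 7 genes above became 3 (Cxcl1, Cxcl3 and Lcn2) without PAM replicate 1, and the same 3 without PAM replicate 3. Cxcl2 missed the fold threshold in both fits, at smallest log2 differences of 0.90 and 0.94. Ptges, Osbpl3 and Rab11fip1 missed in both at adjusted p of 0.055 to 0.53, and Ptges was also lost without PAM replicate 2 (adjusted p = 0.66). Without any 1 of the 9 LPS, CpGB or Zymosan libraries, fits added after seeing the data, 4 genes were above. Cxcl1, Cxcl3 and Lcn2 were among them each time, with Osbpl3 in 7 of the fits, Rab11fip1 without CpGB replicate 1 and Cxcl2 without CpGB replicate 2. DESeq2 called Cxcl1, Cxcl2, Cxcl3 and Lcn2. Other processing choices ended calls too. Cxcl2 fell just short of the fold threshold with RLE factors (smallest log2 difference 0.995) and with Ctrl and single-ligand libraries only (0.965). Rab11fip1 was lost with library size alone (adjusted p = 0.062), no filter on low counts (adjusted p = 0.15) and thinning (adjusted p = 1), and Ptges with no filter (adjusted p = 0.17) and thinning (adjusted p = 1). Dck was lost without PAM replicate 2 (adjusted p = 0.25) or PAM replicate 3 (adjusted p = 0.14) and without CpGB replicate 3 (adjusted p = 0.11) or Zymosan replicate 2 (adjusted p = 0.94). It was also lost with no filter (adjusted p = 0.13), DESeq2 (adjusted p = 0.15) and thinning (adjusted p = 1), while Atf3 was called below all 6 under every alternative tried.

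**Figure D5:**
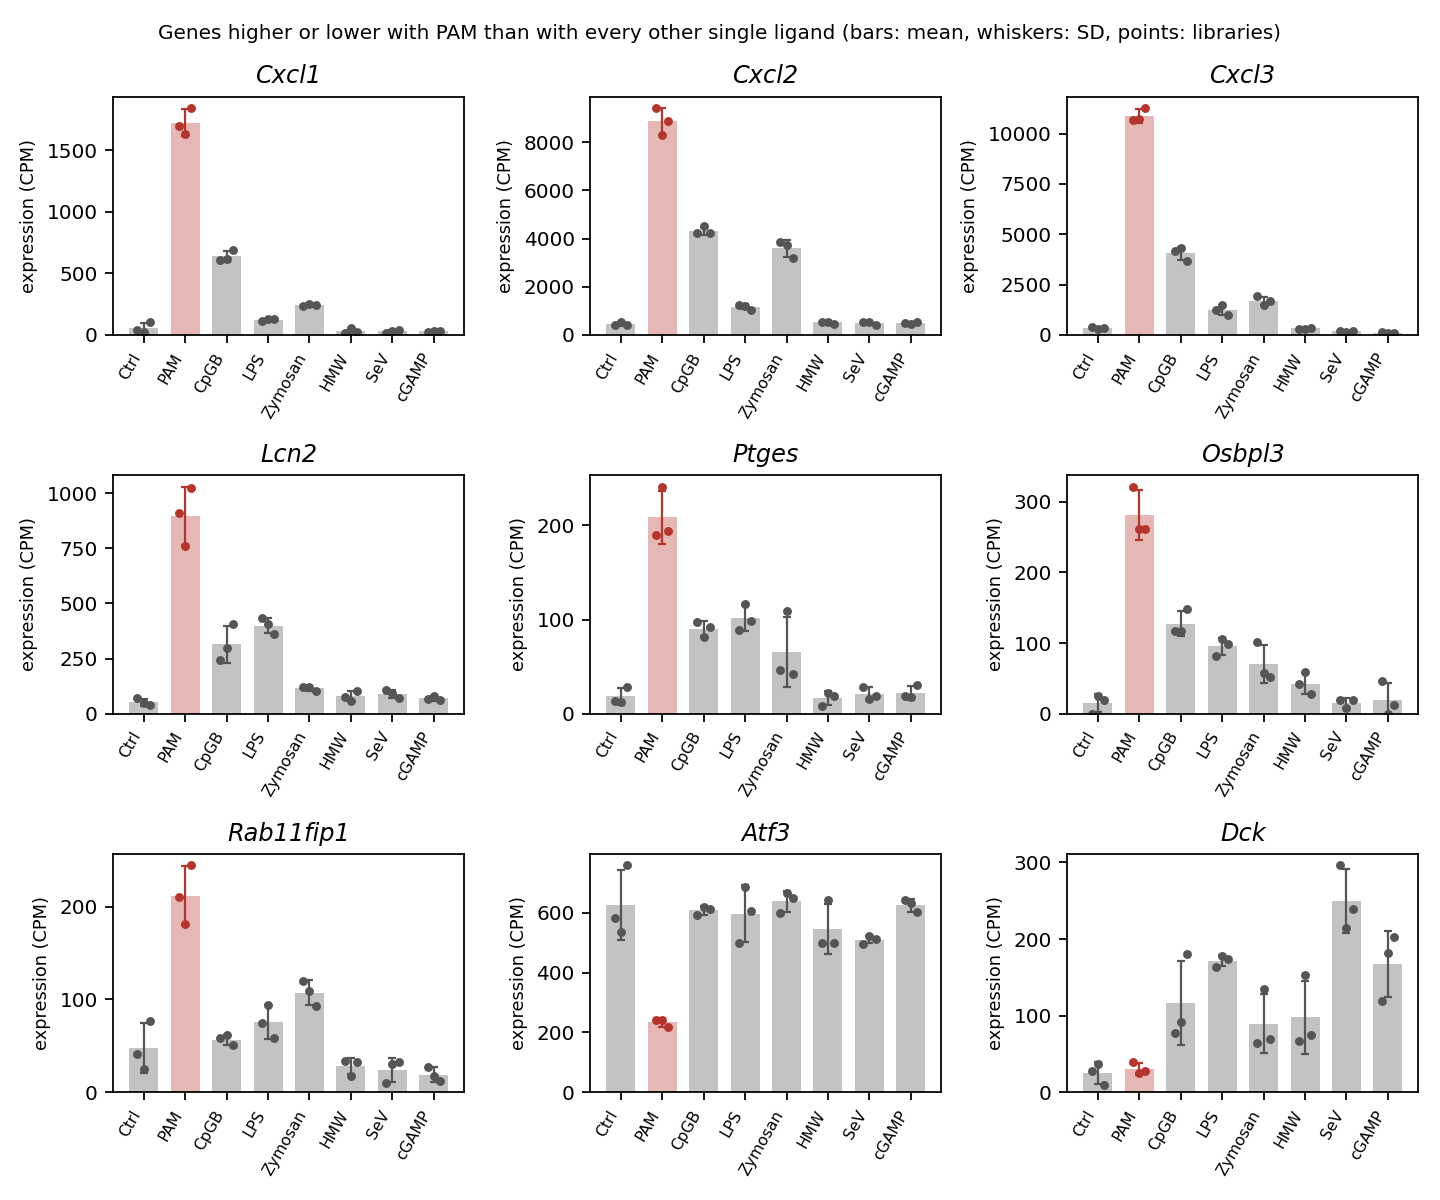
Levels (CPM, linear axis from 0) of the 7 genes above and 2 genes below all 6 other single ligands, 1 panel per gene, with bars at the mean, whiskers of 1 SD and a point per library for Ctrl, PAM (red) and each other ligand. PAM is the highest group for Cxcl1, Cxcl2, Cxcl3, Lcn2, Ptges, Osbpl3 and Rab11fip1 and the lowest ligand for Atf3 and Dck.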

How the data were processed

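Expression was measured in 64 groups of 3 libraries of mouse bone marrow-derived dendritic cells, of which the 3 PAM and 3 Ctrl libraries make the main comparison. The authors deposited whole-number UMI counts per gene symbol for 23481 genes, with no normalization. BWA 0.7.15 and the genome build mm10 are named in the submitters' processing notes, without a role. How UMIs were collapsed, how reads matching several genes were treated and whether strand was used are not given in the sources used here, so genes with near-identical copies are less certain.

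From these counts, edgeR 4.0.16 in R 4.3.3 kept 4720 genes by filterByExpr on the group (95.7% of all UMIs), applied TMM factors and fitted 1 quasi-likelihood model with a coefficient for each of the 64 groups (128 residual degrees of freedom, common biological coefficient of variation 10.3%). Contrasts were tested with its quasi-likelihood F-test, Benjamini-Hochberg adjusted over the genes tested, and called at 0.05 with a log2 fold change of at least 1. The steps were tested on simulated data. CPM use the TMM-scaled library sizes. Fold changes are 2 to the power of the fitted log2 value, and ratios for 1 to 3 counts have exact 95% counting intervals. Alternatives were RLE factors, library size alone, no filter, DESeq2 1.42.0, 2 smaller sets of libraries, replicate numbers as a block, thinning to 46564 counts, no fold threshold and leaving out each library.

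Gene lists came from textbook knowledge, and lists and comparisons were chosen with earlier results of these data known. Named genes were list members, largest called changes first, with Tlr1, Tlr2, Tlr6 and Cd14 whatever their values; the 10 largest rises and falls with at least 4 counts in each group, 100 CPM in the higher group and no overlap; up to 5 genes each way with 0 to 3 counts in 1 group; the 5 largest differences each way from LPS, CpGB and Zymosan; and all genes above or below the 6 other single ligands. Promoter windows and sequences are from RefSeq, build GRCm38.p6. A few genes that these rules name are not reported here.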

Additional observations from a re-analysis of the deposited data

How the results depend on the processing

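Thinning every library to 46564 counts, the lowest total of the series, left 339 genes called with PAM against Ctrl (222 higher and 117 lower after recentring, 210 and 126 before), of which 300 were among the 656; against LPS, CpGB and Zymosan it left 324, 126 and 223, and below all 6 ligands 1. Fewer calls were made at that lower depth, where fewer genes were also tested. Genes lower than Ctrl numbered 182 with no filter on low counts, after recentring. With no fold threshold 418 genes differed from CpGB, 19 were above all 6 ligands and 5 below. DESeq2 gave 4 above and 1 below, no filter gave 1 below, and Ctrl and single-ligand libraries alone gave 6 below. With PAM and Ctrl libraries only, 1977 genes were tested and 473 called against Ctrl, 283 higher and 190 lower. Of those calls 441 were among the 656. Leaving out 1 library gave 527 to 598 calls against Ctrl, 316 to 371 higher and 211 to 232 lower, 651 to 724 against LPS, 204 to 296 against CpGB, 366 to 435 against Zymosan, and, over PAM, LPS, CpGB and Zymosan libraries, 3 to 7 above all 6 ligands and 1 to 3 below (HMW, SeV and cGAMP libraries were not left out, and leaving out LPS, CpGB and Zymosan libraries for these counts was added after seeing the data). None of the 656 called genes changed sign under any alternative in which it was tested. Uncalled log2 fold changes against Ctrl turned sign for Ccl2 (-0.095 when thinned), Dck (-0.52 when thinned, and from -0.10 without Ctrl replicate 3 to 0.83 without Ctrl replicate 2) and Isg20 (-3.05 when thinned, and from -0.39 to 1.09 without the same libraries). Other causes were not tested. Replicate numbers did not pair the libraries: deviations of same-numbered PAM and Ctrl libraries correlated at -0.01, -0.01 and 0.02 over 4720 genes. With the replicate number as a block, 653 genes were called, 377 higher and 276 lower, 651 of them among the 656, and 770, 279 and 464 against LPS, CpGB and Zymosan. No call given above changed with the block, and Ch25h, not called with the TMM fit without it, took the lipid-handling list from 1 to 2 higher.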
